A study of Sus scrofa with 10 samples.

Results

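Marker genes of T cells and macrophages were examined in the ovaries of gilts given recombinant pig follicle-stimulating hormone (rpFSH) and of control gilts. The 10 genes were PTPRC, which is found on nearly all leukocytes, CD3E, CD3D, CD4 and CD8A, which mark T cells, and MRC1, CD163, CSF1R, CD14 and CD68, which mark macrophages. Each was taken as the protein-coding locus that carries its symbol, and all 10 were found among the 43499 loci of the table, of which 19972 were protein-coding. All 10 had a mean of at least 0.1 FPKM (fragments scaled to transcript length and library size) and were tested.

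The series holds ovary RNA of 10 gilts, with 1 library per pig and 5 pigs in each of the 2 groups, control and rpFSH treatment. All the gilts shared their genetic background and day of birth, and had received altrenogest, a progestin that delays oestrus, for 18 days (20 mg daily) from an age of 210 days. Altrenogest was then withdrawn for 2 days, after which rpFSH was given to the treatment group (1000 IU for each gilt) and saline to the control group. Ovary tissue was taken at an age of 234 days once the follicles on the surface had been removed. The labels of the treated pigs spell the agent fpFSH, and those of the control pigs say untreated.

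In the ovary, macrophages lie in the stroma, around growing and degenerating follicles and in the corpus luteum, where they take up dying cells and secrete cytokines. T cells are fewer, and gather around vessels and in the regressing corpus luteum. T cells recognise antigen through a receptor that signals by way of the CD3 chains, with CD4 or CD8 as co-receptor, whereas macrophages depend on signals through the receptor encoded by CSF1R and clear ligands through scavenger receptors such as those encoded by MRC1 and CD163.

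Total counts were between 64873797 and 75114003 per pig. A list of ovary genes (granulosa cell, steroidogenic and oocyte genes) was present in each pig, but the summed FPKM of its 7 genes with a locus of their own ranged from 19.1 to 2295 among control pigs and from 21.3 to 1314 among rpFSH pigs, with the highest values in control replicate 2 and rpFSH replicate 1. Control replicates 2 and 5 stood apart in a list of 5 genes of oviduct-type and ciliated epithelium with a locus of their own, with summed levels of 37.7 and 45.2 FPKM, against 5.54 to 13.6 in the other control pigs and 3.02 to 6.21 in the rpFSH treatment group. The results are therefore given with and without control replicates 2 and 5.

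The loci were those of the authors' assembly on Sscrofa11.1. PTPRC (MSTRG.3886) lay on chromosome 10 from 21483047 to 21602035, CD8A (ENSSSCG00000008217) on chromosome 3 from 57998830 to 58031823, MRC1 (MSTRG.4318) on chromosome 10 from 44107072 to 44226925, CD163 (MSTRG.25571) on chromosome 5 from 63300146 to 63334537, and CD14 (MSTRG.19747) on chromosome 2 from 142346211 to 142349349. CSF1R (MSTRG.19947) lay on chromosome 2 from 151099084 to 151129407, a span that reaches into the end of its neighbour HMGXB3 in RefSeq (Sscrofa11.1). The assembled loci of CD3E (MSTRG.34505, plus strand, chromosome 9 from 45619381 to 45635379) and CD3D (MSTRG.34506, minus strand, from 45622468 to 45644243) overlapped. In RefSeq the genes do not overlap, with CD3E from 45619730 to 45633972 and CD3D from 45640475 to 45644153. The assembled CD3D locus thus also covers part of CD3E. It is not stated whether the counting used strand, so that reads of the stretch the assembled loci share cannot be assigned to one gene with certainty. 2 members did not have a locus to themselves. CD4 was joined with its neighbour GPR162 in a single locus on chromosome 5 from 63885714 to 63918669 (MSTRG.25612). CD68 was joined on chromosome 12 from 52868366 to 52877704 (MSTRG.7044) with EIF4A1, a translation initiation factor that all cells use, and with 2 small RNA genes. The values of these 2 loci are those of the merged loci, and their levels are not levels of CD4 or CD68 alone.

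The macrophage genes were the more abundant in these ovaries. Mean levels over the 10 pigs fell in the order CD68 locus (29.8 FPKM), MRC1 (8.51 FPKM), CD163 (4.97 FPKM), CSF1R (3.03 FPKM), PTPRC (1.89 FPKM), CD14 (1.16 FPKM), CD3E (0.417 FPKM), CD3D (0.390 FPKM), CD4 locus (0.340 FPKM) and CD8A (0.208 FPKM). MRC1 was above CD163 in 10 of 10 pigs, CD163 above CSF1R in 9, CSF1R above PTPRC in 10, PTPRC above CD14 in 9, CD14 above CD3E in 9, and the CD4 locus above CD8A in 10. CD3E, CD3D and the CD4 locus were not separated, since CD3E was above CD3D in 6 pigs and CD3D above the CD4 locus in 5. Among the 15170 protein-coding loci tested, MRC1 stood at percentile 88.5 of mean level and CD8A at percentile 6.77.

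**Figure D1:**
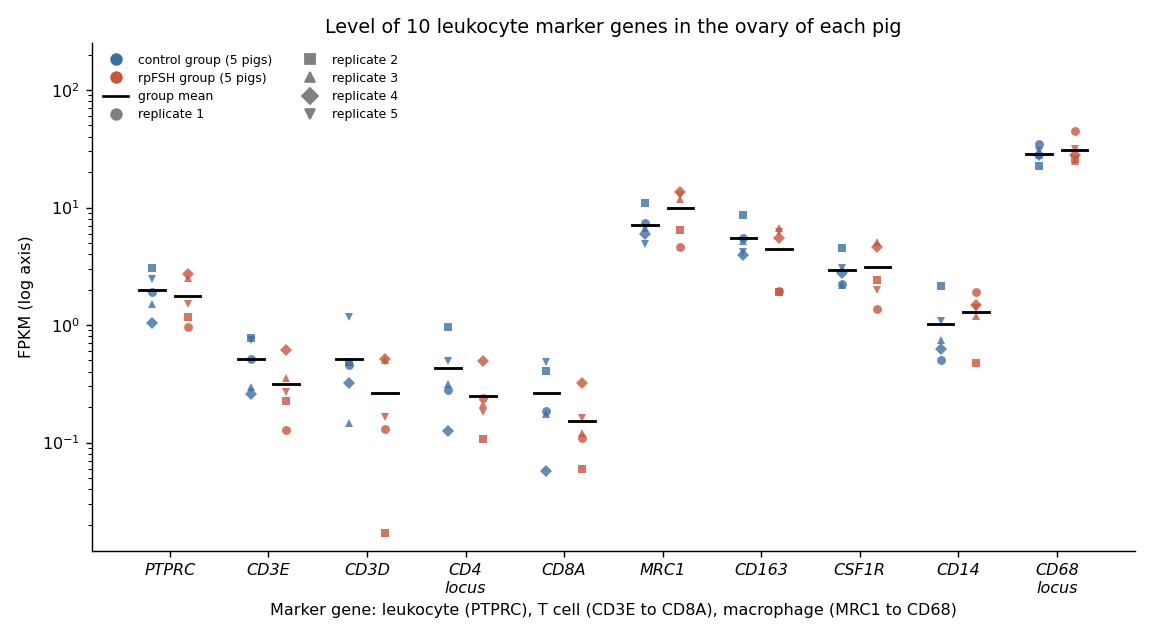
FPKM of each marker gene in each pig on a log axis, with control pigs in blue, rpFSH pigs in red, a marker shape per replicate number and a black line at each group's mean. The 2 groups overlap in every gene, and the macrophage genes MRC1 and CD163 lie above the T cell genes in every pig.

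No marker gene passed the test between the groups. 0 of the 10 had P under 0.05 in the edgeR quasi-likelihood test on counts, where 4.86% of the protein-coding loci tested did (1.11% higher and 3.74% lower in the rpFSH treatment group). With Benjamini-Hochberg adjustment over all 36339 loci tested, edgeR called 0 of the members and 0% of the protein-coding loci, and the smallest adjusted p of a member was 0.948. The FPKM of the groups overlapped in all 10 members, while 0.626% of the protein-coding loci did not overlap. The fold changes were higher in the rpFSH treatment group for 4 members and lower for 6, beside 40.5% of the protein-coding loci tested that were higher. Fewer cells of a type and less RNA per cell cannot be told apart in RNA of mixed tissue.

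PTPRC encodes CD45, a phosphatase needed for signalling through antigen receptors. Its level was 1.90, 3.06, 1.51, 1.04 and 2.47 FPKM in control replicates 1 to 5, and 0.968, 1.16, 2.53, 2.74 and 1.50 FPKM in rpFSH replicates 1 to 5. The ranges lay on each other, with control replicate 2 highest and rpFSH replicate 1 lowest. The log2 fold change was -0.17 (SE 0.366, 95% interval -0.98 to 0.65, adjusted p = 0.999, edgeR), and the exact permutation p of log2 (FPKM + 1) was 0.643.

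The T cell genes were low, and with all 10 pigs their fold changes had a negative sign under every scaling tried, yet none passed the test. CD3E encodes a chain of the CD3 complex. It was at 0.518, 0.775, 0.297, 0.258 and 0.742 FPKM in the control pigs and at 0.127, 0.227, 0.353, 0.610 and 0.267 FPKM in the rpFSH pigs, which corresponds to between 34 and 206 counts. 4 of the 5 rpFSH pigs were below the control median, and rpFSH replicate 4 was above it. Its log2 fold change was -0.71 (SE 0.464, 95% interval -1.74 to 0.32, adjusted p = 0.948, edgeR, and exact permutation p = 0.175). CD3D encodes a further chain of the same complex. It was at 0.459, 0.483, 0.146, 0.324 and 1.16 FPKM in the control pigs and at 0.129, 0.0169, 0.505, 0.511 and 0.164 FPKM in the rpFSH pigs. These values rest on few reads, from 4 counts in rpFSH replicate 2 to 259 in control replicate 5, and CD3D had the widest interval of the members (log2 fold change -0.95, SE 0.770, 95% interval -2.66 to 0.76, adjusted p = 0.988, edgeR, and exact permutation p = 0.302).

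CD8A encodes the co-receptor chain of cytotoxic T cells, which some natural killer cells carry as well. It was at 0.186, 0.405, 0.174, 0.0572 and 0.488 FPKM in the control pigs and at 0.108, 0.0593, 0.120, 0.319 and 0.161 FPKM in the rpFSH pigs. The lowest pig was control replicate 4 and the highest control replicate 5, and 4 of the 5 rpFSH pigs lay below the control median. The log2 fold change was -0.77 (SE 0.596, 95% interval -2.09 to 0.55, adjusted p = 0.985, edgeR, and exact permutation p = 0.254). The merged locus of GPR162 and CD4, the co-receptor of helper T cells, was at 0.277, 0.953, 0.313, 0.124 and 0.492 FPKM in the control pigs and at 0.240, 0.108, 0.213, 0.497 and 0.182 FPKM in the rpFSH pigs. Its log2 fold change was -0.80 (SE 0.556, 95% interval -2.04 to 0.43, adjusted p = 0.964, edgeR, and exact permutation p = 0.278).

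Without control replicates 2 and 5, the negative values of CD3E and CD3D were closer to 0, and those of the CD4 locus and CD8A changed sign. These 2 pigs had the highest CD3E and CD8A of all 10 pigs and were also the pigs with high epithelial genes. The part of that tissue in the result was not tested. The log2 fold changes without them were -0.13 for CD3E, -0.18 for CD3D, 0.11 for the CD4 locus and 0.19 for CD8A. In rpFSH replicates 1 and 2, CD3E, CD3D and CD8A took ranks between 1 and 3 of 10, whereas in rpFSH replicate 4 they took ranks 8 and 9, so that the pigs of the rpFSH treatment group differed widely among themselves.

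**Figure D2:**
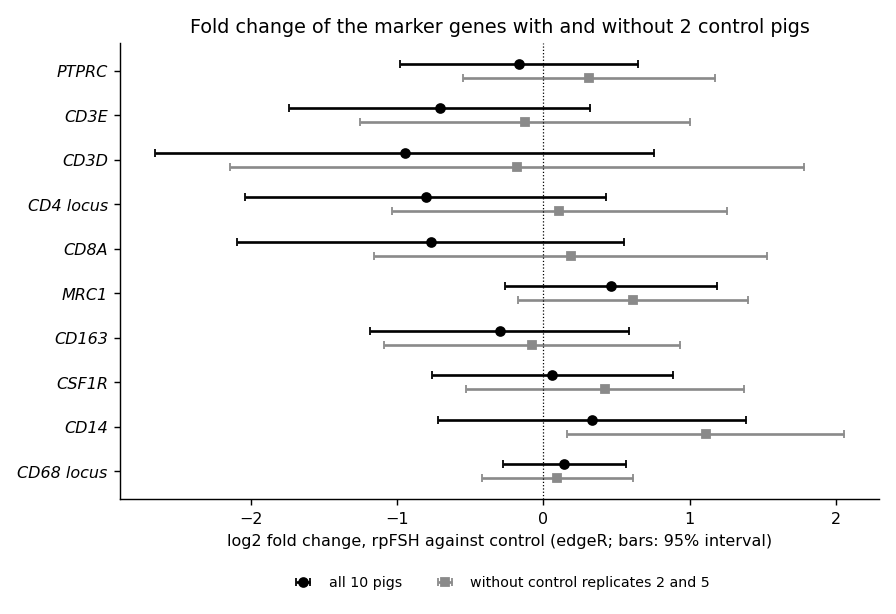
log2 fold change of each marker gene (rpFSH against control) from edgeR with its 95% interval, for all 10 pigs (black circles) and without control replicates 2 and 5 (grey squares). With all pigs every interval includes 0, and without the 2 control pigs the T cell genes move to between -0.18 and 0.19 and CD14 to 1.11.

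Among the macrophage genes, with all 10 pigs in edgeR, MRC1 had the largest positive fold change and CD163 the only negative one. MRC1 encodes the mannose receptor, which takes up glycoproteins and is carried by tissue macrophages and by some endothelial cells. It was at 7.45, 10.9, 6.67, 5.90 and 4.87 FPKM in the control pigs and at 4.58, 6.50, 11.9, 13.5 and 12.8 FPKM in the rpFSH pigs. rpFSH replicates 3, 4 and 5 were above every control pig, whereas rpFSH replicates 1 and 2 were below the control median. The log2 fold change was 0.46 (SE 0.327, 95% interval -0.26 to 1.19, adjusted p = 0.969, edgeR, and exact permutation p = 0.310). CD163 encodes the scavenger receptor for haemoglobin bound to haptoglobin. It was at 5.47, 8.65, 5.22, 3.91 and 4.17 FPKM in the control pigs and at 1.95, 1.90, 6.74, 5.55 and 6.18 FPKM in the rpFSH pigs. rpFSH replicates 1 and 2 were below every control pig, and the other 3 were above the control median. The log2 fold change was -0.30 (SE 0.399, 95% interval -1.18 to 0.59, adjusted p = 0.999, edgeR, and exact permutation p = 0.381). It moved to -0.03 without control replicate 2, to -0.11 without rpFSH replicate 1 or without rpFSH replicate 2, to -0.49 without rpFSH replicate 3 and to -0.08 without control replicates 2 and 5. MRC1 stayed at 0.33 to 0.71 with each pig left out and was at 0.61 without those 2 control pigs.

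CSF1R encodes the receptor for the growth factors CSF1 and IL34, on which macrophages depend. It was at 2.25, 4.55, 2.17, 2.78 and 3.05 FPKM in the control pigs and at 1.37, 2.40, 5.09, 4.60 and 1.99 FPKM in the rpFSH pigs. High and low pigs stood in both groups, and the log2 fold change of 0.06 (SE 0.372, 95% interval -0.76 to 0.89, adjusted p = 0.999, edgeR, and exact permutation p = 0.960) had the opposite sign to the difference of mean log2 (FPKM + 1), which was -0.02. CD14 encodes the co-receptor for bacterial lipopolysaccharide. It was at 0.508, 2.16, 0.741, 0.621 and 1.08 FPKM in the control pigs and at 1.93, 0.471, 1.18, 1.48 and 1.40 FPKM in the rpFSH pigs. 4 of the 5 rpFSH pigs were above the control median, but the highest pig was control replicate 2 (log2 fold change 0.33, SE 0.474, 95% interval -0.72 to 1.39, adjusted p = 0.999, edgeR, and exact permutation p = 0.444). Without control replicates 2 and 5 it was 1.11 (SE 0.415), and CD14 was then the 1 member with P under 0.05, a limit that 6.29% of the protein-coding loci passed in the same fit. It did not pass with adjustment (adjusted p = 0.758, edgeR). In the fit without control replicates 2 and 5, the log2 fold changes of CSF1R and the CD68 locus were 0.42 and 0.096. The merged locus of CD68, a lysosomal membrane protein, and EIF4A1 was the steadiest, at between 22.4 and 34.9 FPKM in the control pigs and between 24.8 and 44.4 FPKM in the rpFSH pigs (log2 fold change 0.14, SE 0.190, 95% interval -0.28 to 0.57, adjusted p = 0.999, edgeR, and exact permutation p = 0.651).

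The spread between pigs was large for most members. The coefficient of variation over the 10 pigs was 40.4% for PTPRC, 54.6% for CD3E, 83.7% for CD3D, 70.9% for CD8A, 40.0% for MRC1, 41.9% for CD163, 42.1% for CSF1R and 50.9% for CD14, against a median of 31.6% over the protein-coding loci tested. The merged loci had 74.7% (CD4) and 20.9% (CD68). The 4 T cell loci, the lowest members, thus had the widest spread. The ranks of the pigs showed which animals made this spread. Control replicate 2 ranked highest of the 10 pigs in PTPRC, CD3E, the CD4 locus, CD163 and CD14, and lowest in the CD68 locus. rpFSH replicate 1 ranked lowest in PTPRC, CD3E, MRC1 and CSF1R and highest in the CD68 locus, whereas its CD14 was at rank 9. rpFSH replicate 4 ranked between 7 and 10 in every member other than the CD68 locus.

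**Figure D3:**
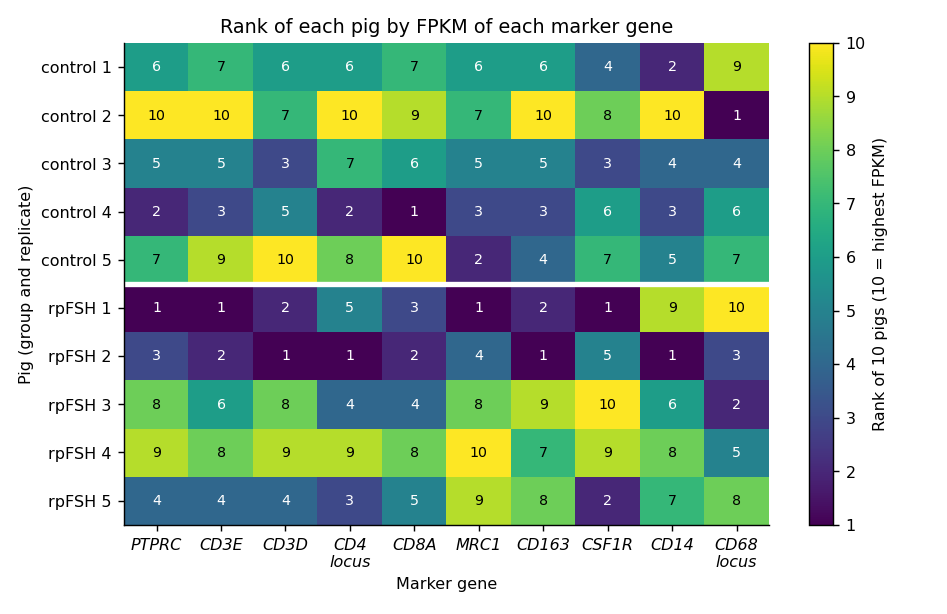
Rank of each pig (rows, control group above the white line and rpFSH treatment group under it) by FPKM of each marker gene (columns), from 1 for the lowest to 10 for the highest of 10. Control replicate 2 and rpFSH replicate 4 rank high and rpFSH replicates 1 and 2 low in most genes, while control replicate 5 ranks 9 or 10 in CD3E, CD3D and CD8A and 2 in MRC1.

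Of the 6 pairs among the 4 T cell loci, 3 varied together from pig to pig by both measures used. Over the 45 pairs of members, 37 had a positive Pearson r of log2 (FPKM + 1) over the 10 pigs, and 4 had an adjusted p under 0.05 for both r and Spearman's rho (100000 permutations, Benjamini-Hochberg over the 45 pairs). These were CD3E with CD8A (r = 0.908, adjusted permutation p = 0.0179, rho = 0.903, adjusted permutation p = 0.0187), CD3E with PTPRC (r = 0.886, adjusted permutation p = 0.0179, rho = 0.927, adjusted permutation p = 0.0171), CD3E with CD3D (r = 0.812, adjusted permutation p = 0.0254, rho = 0.842, adjusted permutation p = 0.0439), whose loci overlap, and the CD4 locus with CD8A (r = 0.865, adjusted permutation p = 0.0179, rho = 0.891, adjusted permutation p = 0.0195). Without the 2 pigs farthest from the median of CD3E, PTPRC, CD3E and the CD4 locus, respectively, r was 0.793, 0.808, 0.781 and 0.932 for these 4 pairs. The other 3 T cell pairs had an r of 0.834 (CD3E with the CD4 locus), 0.781 (CD3D with CD8A) and 0.533 (CD3D with the CD4 locus), with adjusted permutation p of rho of 0.0544, 0.109 and 0.170. On deviations from the group means, the 4 pairs that passed had r of 0.893 (CD3E with CD8A), 0.930 (CD3E with PTPRC), 0.769 (CD3E with CD3D) and 0.842 (the CD4 locus with CD8A). The 6 pairs among MRC1, CD163, CSF1R and CD14 had r between 0.23 and 0.73, and 0 of them passed for both measures. The CD68 locus had a negative r with CSF1R (-0.77, adjusted permutation p = 0.0301, rho = -0.67, adjusted permutation p = 0.118). The genes of a pig share its library, whose depth and tissue content enter every value. Without control replicates 2 and 5, the 4 pairs had r of 0.793 (CD3E with CD8A), 0.846 (CD3E with PTPRC), 0.781 (CD3E with CD3D) and 0.944 (the CD4 locus with CD8A), although with 8 pigs none of the 45 pairs passed for both measures by permutation.

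Ratios within a pig do not depend on the scaling of its library. Of 7 ratios compared by two-sided exact permutation, CD3E to PTPRC had p under 0.05. The log2 ratio was -1.99 ± 0.227 for control pigs against -2.56 ± 0.324 for rpFSH pigs (mean ± SD, n = 5 per group), so that it differed by -0.57 (exact permutation p = 0.0159, adjusted over the 7 ratios p = 0.111). All 5 rpFSH pigs were below the control median, but the ranges overlapped, from -2.35 to -1.74 among control pigs and from -2.93 to -2.16 among rpFSH pigs, and the adjusted p did not pass. Without control replicates 2 and 5 the difference was -0.48 (exact permutation p = 0.0893). The other 6 ratios, of which 5 relate macrophage genes to each other or to PTPRC and 1 relates the CD4 locus to CD8A, had an exact permutation p of at least 0.222.

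The ratio of MRC1 to CD163 did not overlap between the 2 groups of pigs. This ratio was not among the 7 and was picked out from all 45 ratios of 2 members after their values were seen. MRC1 was 1.36, 1.26, 1.28, 1.51 and 1.17 times CD163 in control replicates 1 to 5, and 2.35, 3.42, 1.76, 2.43 and 2.07 times CD163 in rpFSH replicates 1 to 5. Every rpFSH pig was above every control pig, both where the 2 genes were low (rpFSH replicates 1 and 2) and where they were high (rpFSH replicates 3 to 5). The log2 ratio was 0.39 ± 0.137 for control pigs against 1.23 ± 0.353 for rpFSH pigs (mean ± SD, n = 5 per group), so that it differed by 0.84 (two-sided exact permutation p = 0.00794, the smallest that 5 against 5 can give). Adjusted over the 45 ratios, the permutation p was 0.268, which did not pass the threshold. It was the only 1 of the 45 ratios whose groups did not overlap (2.22%). When each protein-coding locus tested was set against CD163, the groups did not overlap for 31 of 15169 loci (0.204%). MRC1 was among them, which the choice of this ratio had fixed in advance, so that its place there is no further evidence. Set against MRC1, 104 loci did not overlap (0.686%), all of them lower in the rpFSH treatment group. Without control replicates 2 and 5 the difference was 0.77 (exact permutation p = 0.0357), and leaving out each pig in turn gave 0.70 to 0.94. These values come from the same pigs by which the ratio was picked.

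**Figure D4:**
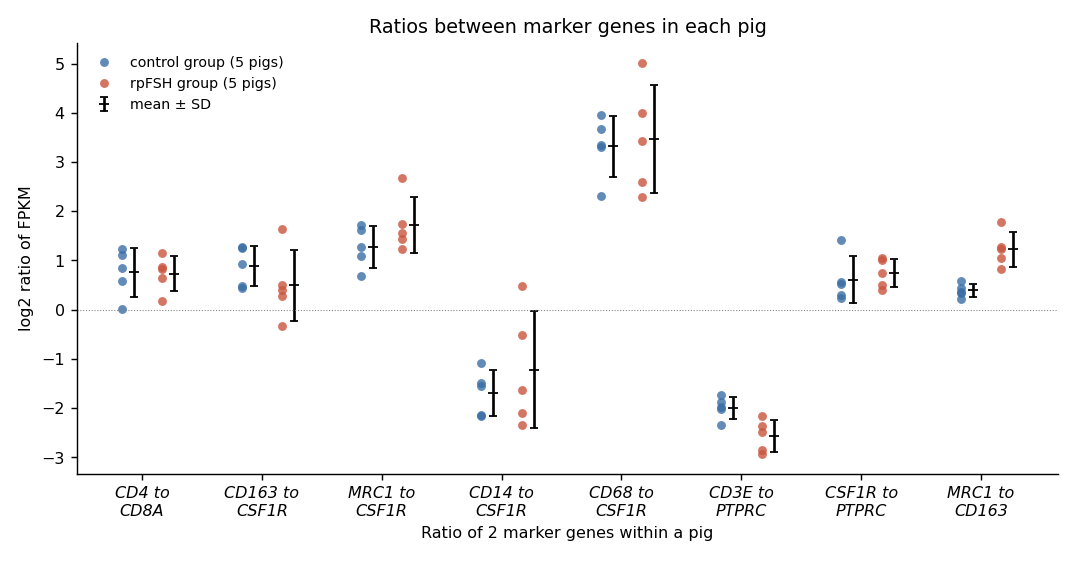
log2 ratio of FPKM between 2 marker genes in each pig for the 7 ratios and for MRC1 to CD163, with control pigs in blue, rpFSH pigs in red and black bars for the mean ± SD of 5 pigs. The groups overlap in each of the 7 ratios, CD3E to PTPRC included, and are apart in MRC1 to CD163, which was chosen after its values were seen.

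**Figure D5:**
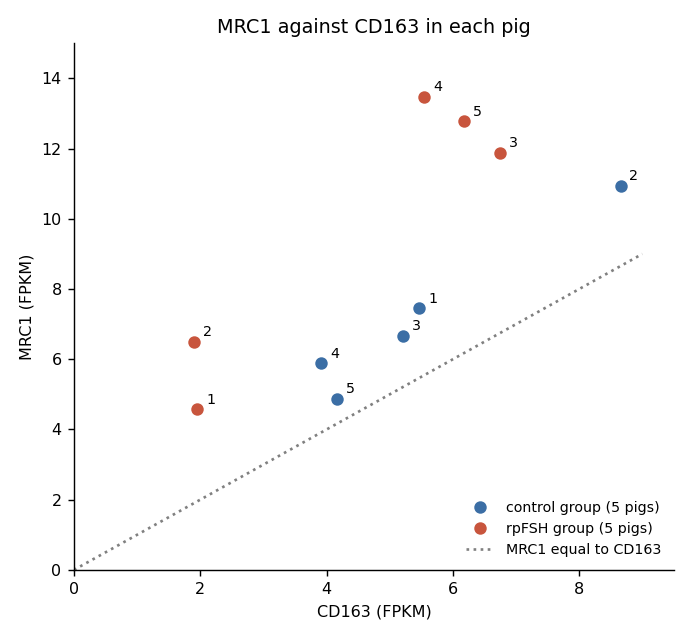
MRC1 against CD163 in FPKM, with 1 point per pig labelled by its replicate number, control pigs in blue, rpFSH pigs in red and a dotted line where both are equal. The control pigs lie at 1.17 to 1.51 times the line and the rpFSH pigs at 1.76 to 3.42 times, although the groups overlap in each gene alone.

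Of the 15 tested genes in a list of macrophage and monocyte genes that have a locus of their own, 0 had a ratio to CD163 or to MRC1 that did not overlap between the groups, beside 0.204% and 0.686% of all protein-coding loci, so that the count says nothing particular to these genes. An unannotated locus within CD163 on the opposite strand (MSTRG.25572, chromosome 5 from 63311437 to 63313487) was at 1.27, 1.82, 1.27, 0.855 and 0.820 FPKM in the control pigs and at 0.426, 0.364, 1.02, 0.744 and 0.774 FPKM in the rpFSH pigs. Its log2 fold change was -0.85 (SE 0.344, P under 0.05, adjusted p = 0.848, edgeR), and its ratio to CD163 went from 0.197 to 0.244 among control pigs and from 0.125 to 0.219 among rpFSH pigs (exact permutation p = 0.0397). This ratio was not among the 7 planned, and its p was not adjusted. The paper's methods describe second strands made with dUTP, but strand use in the counting is not stated. Reads of this locus and of CD163 therefore cannot be told apart, which limits their ratio as well. The 2 unannotated loci within CSF1R had log2 fold changes of 0.09 (MSTRG.19948) and -0.56 (MSTRG.19949), neither with P under 0.05 (edgeR).

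Further genes of the same cells were counted from lists. Of 12 tested genes of the T cell receptor complex and its signalling, 0 had P under 0.05, 4 were higher and 8 lower, and the median log2 fold change was -0.29. The most abundant of them were CD247 (17.3 FPKM) and LCK (5.06 FPKM), both on loci shared with a neighbouring gene, and of the 8 on loci of their own 7 were lower. Of 18 tested macrophage and monocyte genes, 12 were higher and 6 lower, with a median of 0.16. CTSS, a lysosomal protease on a locus shared with ARNT and the most abundant of the list, was at 10.9 ± 0.877 FPKM in control pigs and 15.2 ± 5.34 FPKM in rpFSH pigs (mean ± SD), and was the 1 with P under 0.05 (log2 fold change 0.50, SE 0.217, adjusted p = 0.850, edgeR). The next most abundant was STAB1, a scavenger receptor on a locus shared with NISCH, which was at 9.49 FPKM with a log2 fold change of 0.06. Both values are those of the merged locus. None of the 6 ligands and partners of the receptors encoded by CSF1R and CD14, and none of the 10 pan-leukocyte genes, had P under 0.05 in edgeR. The share of the protein-coding loci with P under 0.05 was the 4.86% given above. Of the same loci, 40.5% were higher in the rpFSH treatment group, and their median log2 fold change was -0.05.

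Genes of other cells that an ovary sample can hold were counted as well. In edgeR, 0 of 5 dendritic cell, 0 of 2 mast cell, 0 of 5 endothelial, 0 of 3 red cell and 0 of 8 ovary genes had P under 0.05. Those with P under 0.05 were all lower in the rpFSH treatment group, namely 1 of 3 B cell and plasma cell genes, 2 of 5 natural killer and cytotoxic genes, 2 of 3 neutrophil genes and 5 of 6 epithelial genes, and none passed after adjustment. Of all protein-coding loci tested, 3.74% had P under 0.05 and were lower, and 1.11% had P under 0.05 and were higher. Most calls were thus lower in the whole series as well. Control replicate 2 or 5 held the highest value in JCHAIN, S100A8, S100A12, GZMB and NCR1. The same was so in the epithelial list for FOXJ1, MAL2, EPCAM, CDH1 and the locus that OVGP1 shares with WDR77. JCHAIN, the joining chain of plasma cell antibodies, was at 22.4 FPKM in control replicate 2 and at no more than 2.04 FPKM in the others, and the neutrophil genes S100A8 and S100A12 were at 7.62 and 5.61 FPKM in the same pig and at no more than 0.187 and 0.0527 FPKM elsewhere. GZMB, a protease of cytotoxic lymphocytes, was at 0.328 and 0.524 FPKM in control replicates 2 and 5 and at no more than 0.0569 FPKM in the others. NCR1, a receptor of natural killer cells, was low, at 0.143 to 0.273 FPKM among control pigs and 0.0715 to 0.106 FPKM among rpFSH pigs (log2 fold change -0.91, SE 0.325, adjusted p = 0.848, edgeR). These values rest on 30 to 59 and 16 to 22 counts. The groups did not overlap, as was so for 0.626% of the protein-coding loci tested, and NCR1 is 1 gene singled out from the lists. The part of these cells in the levels of the T cell genes was not tested.

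The genes whose pattern over the 10 pigs was most like that of a member were taken from 11309 other protein-coding loci with a mean of at least 1 FPKM, as a description without a test. For CD3E they were SEMA4A (r = 0.967), SGTB (r = 0.945), CMTM8 (r = 0.940), PDZK1 (r = 0.934) and the integrin gene ITGA4 (r = 0.917). For CD163 they were the merged locus of PRPS2 and TLR7 (r = 0.935), ENSSSCG00000006350 (r = 0.928), CHIC2 (r = 0.908), RAPGEF5 (r = 0.899) and TLR4, the signalling partner of CD14 (r = 0.893). For CSF1R they were NIPAL2 (r = 0.958), SLC49A3 (r = 0.956), LAMA3 (r = 0.943), MERTK, a receptor by which macrophages take up dying cells (r = 0.939), and LPXN (r = 0.935). With so many candidates and only 10 pigs, high values of r arise for many genes.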

How the data were processed

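Ovary RNA-seq of 10 gilts was used, 5 per group, with 1 library per pig, grouped by the titles of the sample labels. According to the methods and the submitters' processing notes, the authors mapped the reads to Sscrofa11.1 (HISAT2 2.0, Bowtie 0.12.2) and assembled them with StringTie 1.3.0, which gave the deposited FPKM per locus and pig. The deposited table also holds whole-number counts, and how these were made, or whether strand was used, is not given in the sources used here. The methods name rRNA removal and the labels poly(A) selection.

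Counts were tested with edgeR 4.0.16 (quasi-likelihood, TMM, R 4.3.3) on the 36339 loci of any kind with a mean of at least 0.1 FPKM, with Benjamini-Hochberg adjustment over all of them. The study's test works on FPKM, so limma 3.58.1 on log2 (FPKM + 1) was an alternative, as were DESeq2 1.42.0, other scalings and filters, leaving out pigs and the replicate number as a block. The SE is the log2 fold change divided by the square root of F. Single values and ratios were compared by two-sided exact permutation (Python 3.11.15, scipy 1.17.1). Figures were drawn with matplotlib 3.10.9. Of the calculations, the edgeR, limma and DESeq2 fits were tested on simulated counts, with the same spread set for every gene. A count of 3, or 0.0399 to 0.0462 CPM, was taken as the floor, for counting error only. All 10 members were above it in every pig.

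The members and the lists of related genes were chosen with earlier results of these data known. Named are the members, list genes with P under 0.05 and the 2 most abundant of a list where a result turns on them, unannotated loci within a member, and the 5 genes most like CD3E, CD163 and CSF1R. No sequence is printed. P-values measure the spread between these pigs.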

Additional observations from a re-analysis of the deposited data

Results flagged for a closer look

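1 value stood far from the others of its group. The log2 ratio of CSF1R to PTPRC in control replicate 4 was 1.42, and its gap to the next control pig was 0.721 of the whole range of the group, above the limit of 0.71 for 5 samples. Of 36 groups of values examined in this way (10 members and 8 ratios in 2 groups) this was the only 1, and chance alone sets apart about 1 in 20 groups. Control replicate 4 had the lowest PTPRC of the control group (1.04 FPKM) and a CSF1R of 2.78 FPKM, near the middle of its group.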

How the results depend on the processing

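No member had an adjusted p under 0.05 under any alternative of the count test, with 0.758 as the smallest. DESeq2 called 218 loci of any kind where edgeR called 0, and 0 of the members. Counts of members with P under 0.05 were 0 to 1 with each pig left out (MRC1 without control replicate 2 and CD3E without rpFSH replicate 4, in fits where 5.17% and 3.97% of the protein-coding loci had P under 0.05) and 1 (CD14, beside 6.29% of the protein-coding loci) without control replicates 2 and 5, where 7 members instead of 4 were higher and 3 loci had an adjusted p under 0.05. The share of protein-coding loci that were higher was 40.5% with all pigs and 55.3% without control replicates 2 and 5. Leaving out each pig gave 3 to 5 members higher and 0 to 2 loci with an adjusted p under 0.05. CD3E, CD3D, CD8A and the CD4 locus were not tested at a mean FPKM of at least 1. In that setting 1180 loci had P under 0.05, and 1294 did with the replicate block, against 2102. The fit on protein-coding loci alone gave 722, where the same loci had given 737 in the fit on all kinds. Genes of the related lists with P under 0.05 numbered 1 and 2 with limma (pseudocounts of 1 and 0.1), 6 at a mean FPKM of at least 1, 3 with the replicate block, 6 without control replicates 2 and 5, and 7 to 14 with each pig left out, against 11. The share of all protein-coding loci with P under 0.05 in these settings was, in the same order, 2.62%, 3.02%, 3.46%, 2.63% and 6.29%. It was 3.82% to 5.58% with each pig left out, against 4.86%. Of the alternatives, those restricted to members or list genes on loci of their own, all 45 ratios, MRC1 to CD163 and the ratios without 2 control pigs were chosen after seeing the data. In every result without control replicates 2 and 5, the choice of these pigs itself rested on their epithelial levels in these same data.

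Same-numbered pigs had correlations of -0.11, -0.41, 0.05, -0.27 and 0.11 between their deviations from the group means, so the numbers were not taken as pairs. With the replicate block, 0 of the 7 ratios had p under 0.05, as without control replicates 2 and 5, and sign-flips within the pairs gave p = 0.0625, the smallest that 5 exact sign-flips allow, for CD3E to PTPRC (-0.57) and for MRC1 to CD163 (0.84). CD3E to PTPRC was -0.48 (exact p = 0.0893) without control replicates 2 and 5, and -0.67 to -0.47 with each pig left out. Pairs of members that passed for r and rho numbered 7 on deviations from the group means and 0 without control replicates 2 and 5, against 4, although the 4 pairs then had r of 0.78 to 0.94.

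The sign turned in these cases, where CD4 and CD68 stand for their merged loci. Without control replicates 2 and 5 the log2 fold changes of PTPRC, CD4 and CD8A were 0.31, 0.11 and 0.19, the differences of log2 (FPKM + 1) of PTPRC, CD4, CD8A and CSF1R were 0.13, 0.0067, 0.016 and 0.17, and CD68 to CSF1R was -0.19. The log2 fold change of CSF1R was -0.019 and -0.053 with limma and -0.043 with the replicate block, and its difference was 0.026 after upper-quartile scaling. As a difference of medians, CD163 was 0.074 and CD68 -0.015. With each pig left out, log2 fold changes ran from -0.37 to 0.084 for PTPRC (positive without control replicate 2), -0.039 to 0.22 for CD68 (negative without rpFSH replicate 1) and -0.18 to 0.32 for CSF1R. The differences ran from -0.24 to 0.0045, -0.050 to 0.16 and -0.19 to 0.15. CD4 to CD8A ran from -0.21 to 0.11 and CD68 to CSF1R from -0.24 to 0.44. The cause of these turns was not tested. CD3D, CD8A and CD3E rest on 4 to 259, 27 to 231 and 34 to 206 counts per pig.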
